A study of Mus musculus with 21 samples.

Results

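Pglyrp1, Srarp, Slc24a5 and Sp100 are 4 of the 31053 genes counted by mRNA sequencing in E14Tg2a mouse embryonic stem cells. They were chosen from the measured values themselves, because none had a read in the 3 libraries labelled LIF LP while each was read in the libraries labelled 2i+LIF PO or 2i+LIF LP. Their levels in those 3 groups are therefore a description and carry no test. The groups named CH+LIF LP, 2i+LIF HP, CH+LIF HP and LIF HP had no part in the choice.

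E14Tg2a is a male line of 129 background, and the cells used here carry a short-lived GFP knocked into 1 allele of Rex1 (Zfp42). The study compared media for keeping such cells pluripotent, with samples from zero passage and from 1 and 2 months of culture. Its 21 libraries form 7 groups of 3 replicates: 2i+LIF PO, 2i+LIF LP, CH+LIF LP, LIF LP, 2i+LIF HP, CH+LIF HP and LIF HP. All groups share the cell line and a basal NDiff227 medium in which CHIR99021 (CH), PD0325901 (PD) and LIF were given and withdrawn at successive passages. LIF is the cytokine that activates STAT3, CH inhibits GSK3 and so stabilises beta-catenin, PD inhibits MEK and so blocks ERK, and 2i usually means both inhibitors. PO libraries exist for 2i+LIF and no other medium, and PO is taken here to mean zero passage. The protocol text is the same for all samples, so the medium of each is known from its group name. Which of LP and HP is the longer culture is not given in the sources used here.

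The 4 genes belong to no common pathway. Pglyrp1 encodes a secreted peptidoglycan recognition protein, known best from neutrophil granules, that binds bacterial cell walls. Srarp encodes the steroid receptor associated and regulated protein, a partner of nuclear hormone receptors. Slc24a5 encodes a potassium-dependent sodium-calcium exchanger of pigment cells, where it is needed for normal melanin formation. Sp100 encodes a constitutive component of PML nuclear bodies, the nuclear structures that hold SUMO-modified proteins, and is inducible by interferon. In mouse embryonic stem cells, dual inhibition of MEK and GSK3 is known to hold cells in a naive state, and withdrawal of the inhibitors lets ERK signalling return.

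The stretch before each start site is shown because it is what the 4 genes could share at the DNA level. Each line gives the 250 bases upstream of the RefSeq start on GRCm38.p6, read 5′ to 3′ on the gene's own strand. Capitals mark matches to the motifs named in the next paragraph. The reference strain is not 129, so single bases may differ in these cells. Sp100 has a second RefSeq start nearby, whose window is not shown, and the Pglyrp1 start used lies within the longer gene span of GENCODE. The windows are chr7:18884440-18884689 (plus strand) for Pglyrp1, chr4:141436106-141436355 (minus strand) for Srarp, chr2:125067877-125068126 (plus strand) for Slc24a5 and chr1:85649738-85649987 (plus strand) for Sp100.
Pglyrp1: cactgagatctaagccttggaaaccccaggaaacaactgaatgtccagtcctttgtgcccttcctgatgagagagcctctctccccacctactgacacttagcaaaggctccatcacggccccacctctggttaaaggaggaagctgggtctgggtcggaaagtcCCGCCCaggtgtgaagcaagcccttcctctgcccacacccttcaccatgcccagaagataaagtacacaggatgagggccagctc
Srarp: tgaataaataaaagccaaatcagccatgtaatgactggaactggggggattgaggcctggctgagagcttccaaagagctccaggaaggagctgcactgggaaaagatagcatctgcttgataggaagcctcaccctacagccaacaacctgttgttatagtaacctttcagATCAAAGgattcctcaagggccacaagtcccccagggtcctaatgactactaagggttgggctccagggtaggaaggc
Slc24a5: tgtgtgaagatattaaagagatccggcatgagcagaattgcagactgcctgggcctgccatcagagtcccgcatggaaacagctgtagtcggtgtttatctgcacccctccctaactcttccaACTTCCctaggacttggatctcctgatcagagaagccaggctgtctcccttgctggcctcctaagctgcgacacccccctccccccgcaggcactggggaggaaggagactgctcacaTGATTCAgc
Sp100: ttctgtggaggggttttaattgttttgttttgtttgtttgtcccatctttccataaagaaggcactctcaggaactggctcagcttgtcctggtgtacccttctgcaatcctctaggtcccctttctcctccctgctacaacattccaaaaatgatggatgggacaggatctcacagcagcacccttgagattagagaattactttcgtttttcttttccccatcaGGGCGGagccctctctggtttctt

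The search covered 300 bases, from 250 before to 50 after the start, on both strands, for 8 short motifs. Srarp held the TCF/LEF word ATCAAAG, at positions -78 to -72 from the start, a word found in 3.73% of 32851 mouse promoters of this length. Pglyrp1 and Sp100 each held the KLF/SP word GGGCGG (35.7% of promoters). Slc24a5 held the AP-1 word TGANTCA (7.81%), and Slc24a5 and Sp100 each held the ETS word GGAAGT (23.8%), which in Sp100 lies after the start, at 14 to 19, and is not printed. None of the 4 windows held the TATA box word TATAAA (13.6%), the STAT word TTCNNNGAA (8.30%), the interferon response word, GAAA followed by any 2 bases and GAAA again (3.44%) or the E-box CACGTG (7.15%). These are matches of letters only. The windows held 0 CpG in Srarp, 2 in Sp100, 5 in Pglyrp1 and 6 in Slc24a5, against a median of 7 over all promoters. Their GC content ran from 47.7% in Sp100 to 56% in Pglyrp1 (median of all promoters 52.7%).

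Gene counts per library ran from 1132126 to 3783043. A library without a read of a gene could still hold up to 3 by counting error alone, which pooled over LIF LP is 0.636 counts per 1000000 gene counts (CPM). Levels are given in CPM scaled by edgeR's TMM factors, and bounds against LIF LP use pooled counts without that scaling. PCR duplicates were not marked by molecular identifiers, so this limit and every counting interval leave amplification out. Both 2i+LIF LP replicate 1 and 2i+LIF PO replicate 1 differ in make-up from the rest of their group and are referred to as the libraries that stood apart. In the former, 31.7% of gene counts came from Gm42418, which overlaps ribosomal RNA, and in the latter 39.1% were mitochondrial. All 16 embryonic stem cell markers listed were read in some library, and Dppa3 was without reads in LIF LP. The ERK target Dusp6, however, went against some labels: it lay at 0 to 1.23 CPM in LIF HP, which names no MEK inhibitor, and at 0.701, 34.4 and 26.3 CPM in replicates 1, 2 and 3 of 2i+LIF LP, which does. It lay at 2.24 to 4.91 CPM in 2i+LIF PO and 2i+LIF HP, and at 15.3 to 47.1 CPM in CH+LIF LP, LIF LP and CH+LIF HP. The beta-catenin target Sp5 lay at 0.605 to 1.52 CPM in CH+LIF LP, which names the GSK3 inhibitor, beside 0 to 1.10 CPM in LIF LP and 8.39 to 62.4 CPM in 2i+LIF LP, and its CH+LIF HP and LIF HP ranges overlapped. Group names therefore stand here for labels, and the inhibitors in a name are not used to read a direction. File names place the 3 PO libraries in another sequencing run, so run and PO cannot be told apart. Nor can fewer cells expressing a gene and less RNA per cell be told apart in bulk RNA.

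Pglyrp1 (ENSMUSG00000030413) spans chr7:18871331-18890459 on the plus strand of GRCm38 and overlaps no other listed gene. In 2i+LIF PO it had 26.9, 23.0 and 29.7 CPM in replicates 1 to 3, and in 2i+LIF LP 19.6, 21.5 and 8.39 CPM. It had 1.94, 4.84 and 11.4 CPM in CH+LIF LP and no reads in LIF LP. Every PO library thus lay above every 2i+LIF LP library, and CH+LIF LP overlapped 2i+LIF LP. The choice used both PO and 2i+LIF LP, and the share of all genes separated in this way was not counted. At HP it had 31.1, 55.6 and 52.7 CPM in 2i+LIF, 40.9, 47.7 and 27.4 CPM in CH+LIF and 2.58, 19.1 and 15.5 CPM in LIF. By mean the order was 2i+LIF HP (46.5 ± 13.4 CPM, SD, n = 3), CH+LIF HP (38.7 ± 10.3), 2i+LIF PO (26.5 ± 3.34), 2i+LIF LP (16.5 ± 7.10), LIF HP (12.4 ± 8.68), CH+LIF LP (6.06 ± 4.84) and LIF LP at 0. Neighbours in this order overlapped except PO with 2i+LIF LP and CH+LIF LP with LIF LP. Pglyrp1 was the gene of the 4 with reads in every library outside LIF LP. Its pooled level in those groups was 8.95 (CH+LIF LP) to 75.5 (2i+LIF HP) times the limit set for LIF LP.

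**Figure D1:**
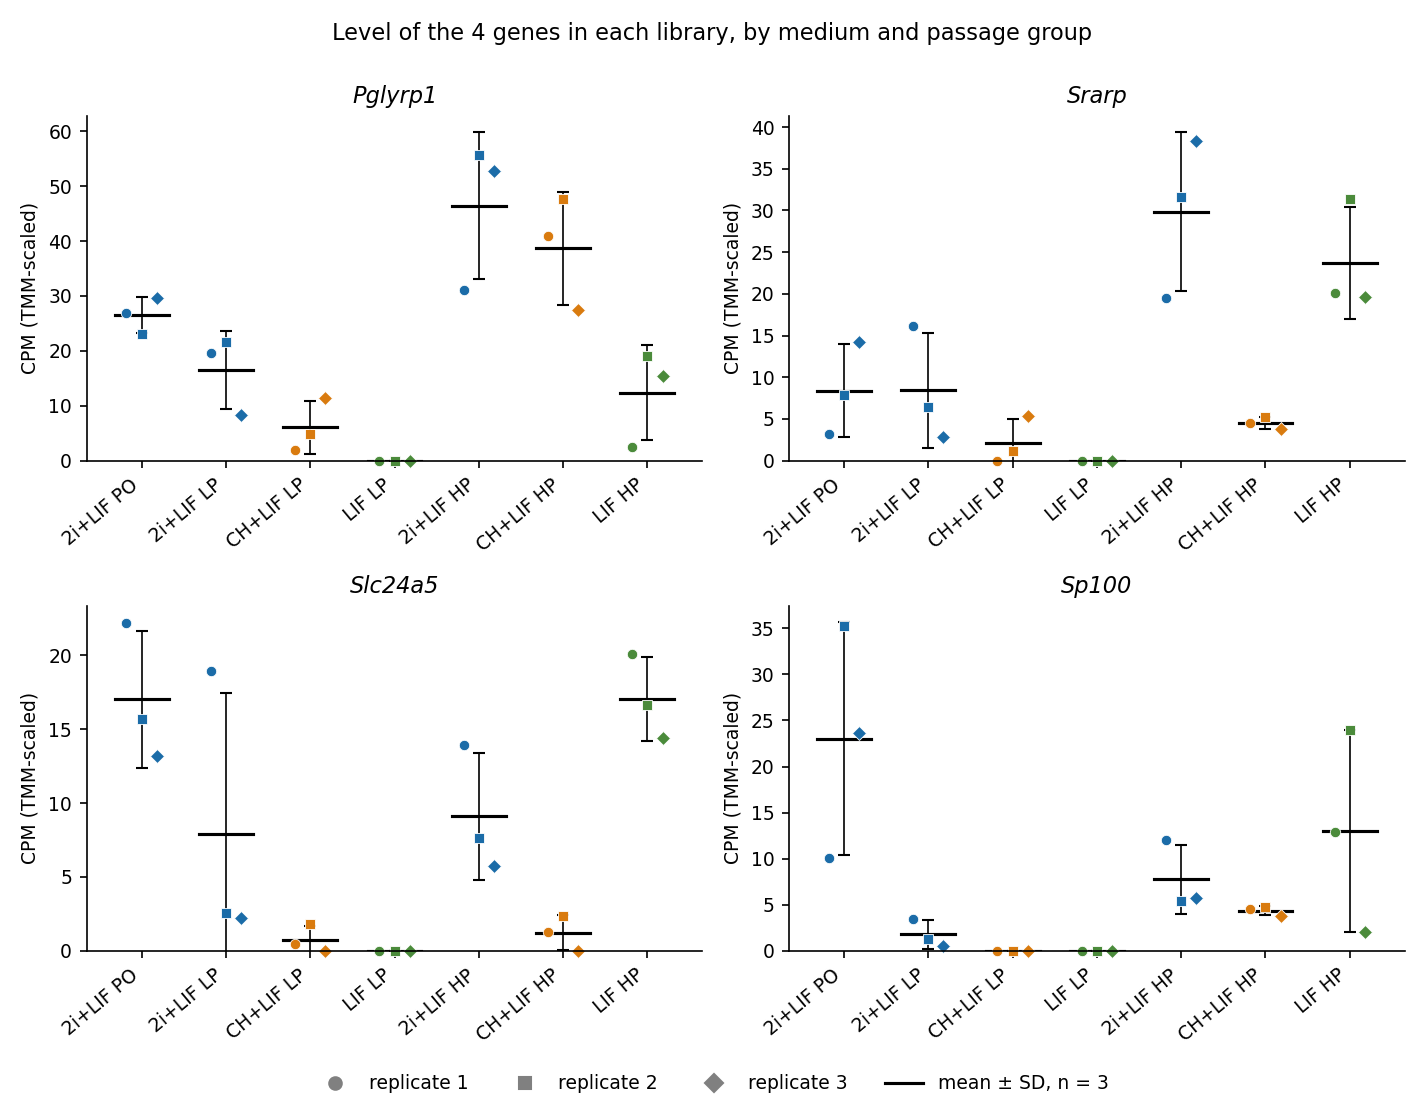
Level of Pglyrp1, Srarp, Slc24a5 and Sp100 in CPM (TMM-scaled, linear axis from 0) in each of the 21 libraries, by medium and passage group; points are replicates and bars the mean ± SD of 3. LIF LP sits at 0 in all 4 panels, Pglyrp1 is high in 2i+LIF HP and CH+LIF HP, Srarp in 2i+LIF HP and LIF HP, and Slc24a5 in 2i+LIF PO and LIF HP.

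Srarp (ENSMUSG00000070637) spans chr4:141432672-141436105 on the minus strand and overlaps no other listed gene. It had 3.17, 7.84 and 14.2 CPM in 2i+LIF PO and 16.1, 6.46 and 2.80 CPM in 2i+LIF LP. In CH+LIF LP it had 0, 1.21 and 5.32 CPM, the last from 7 reads. The PO and LP groups overlapped one another throughout, apart from LIF LP with both 2i+LIF groups. At HP, Srarp had 19.5, 31.6 and 38.3 CPM in 2i+LIF, 4.54, 5.25 and 3.81 CPM in CH+LIF and 20.1, 31.4 and 19.6 CPM in LIF. All libraries of 2i+LIF HP (29.8 ± 9.54 CPM) and LIF HP (23.7 ± 6.69) lay above all other libraries of the study. The share of all genes separated in this way was not counted. CH+LIF HP (4.53 ± 0.72) lay within the range of 2i+LIF PO (8.41 ± 5.54) and 2i+LIF LP (8.46 ± 6.89). Without replicate 1, the library that stood apart, the means were 4.63 CPM for 2i+LIF LP and 11.0 CPM for 2i+LIF PO, so the order of these groups rests on those libraries. The pooled level was 47.2 times the limit in LIF LP for 2i+LIF HP, and 31.5 times for LIF HP.

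Slc24a5 (ENSMUSG00000035183) spans chr2:125068124-125088677 on the plus strand, and its distal end overlaps Myef2 on the opposite strand. It had 22.2, 15.7 and 13.2 CPM in 2i+LIF PO. The libraries of 2i+LIF LP split into 18.9 CPM in replicate 1 and 2.58 and 2.24 CPM in replicates 2 and 3. Replicate 1 is the library with 0.701 CPM of Dusp6, and without it the mean of 7.92 ± 9.54 CPM was 2.41 CPM. CH+LIF LP held 1, 3 and 0 reads (0.484, 1.82 and 0 CPM). At HP the gene had 13.9, 7.63 and 5.75 CPM in 2i+LIF, 1.30, 2.39 and 0 CPM in CH+LIF and 20.1, 16.6 and 14.4 CPM in LIF. LIF HP (17.0 ± 2.86 CPM) and 2i+LIF PO (17.0 ± 4.62) were the highest groups, with the LIF HP values inside the range of PO, followed by 2i+LIF HP (9.11 ± 4.29). The lowest groups with any reads were CH+LIF HP (1.23 ± 1.19 CPM) and CH+LIF LP (0.767 ± 0.94). The pooled level was 24.1 times the limit in LIF LP for PO, 23.1 times for LIF HP and 16.9 times for 2i+LIF HP.

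Sp100 (ENSMUSG00000026222) spans chr1:85649988-85709998 on the plus strand and overlaps the antisense gene Gm17017, which had 1 read in all libraries together. Sp100 had 10.0, 35.3 and 23.7 CPM in 2i+LIF PO, from 19, 135 and 95 reads. In 2i+LIF LP it had 5, 3 and 1 reads (3.51, 1.29 and 0.559 CPM), and in both CH+LIF LP and LIF LP it had none. It was thus the gene of the 4 that was lacking in a second group. At HP it had 12.1, 5.45 and 5.75 CPM in 2i+LIF, 4.54, 4.77 and 3.81 CPM in CH+LIF and 12.9, 24.0 and 2.06 CPM in LIF. The LIF HP values thus spanned those of every other HP library. By mean, 2i+LIF PO (23.0 ± 12.7 CPM) came before LIF HP (13.0 ± 11.0), 2i+LIF HP (7.76 ± 3.75), CH+LIF HP (4.37 ± 0.503) and 2i+LIF LP (1.79 ± 1.53), with no overlap between 2i+LIF HP, CH+LIF HP and 2i+LIF LP. Without the library that stood apart, the mean was 29.5 CPM for PO and 0.925 CPM for 2i+LIF LP. The pooled PO level was 38.7 times the limit in LIF LP, and that of 2i+LIF LP 2.56 times.

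All 4 genes had reads in every library of 2i+LIF PO and 2i+LIF LP, and so lay above LIF LP throughout. The choice fixed the absence in LIF LP and reads in at least 1 of these 2i+LIF groups, and used the values of both. Among all 10643 genes tested, 15.3% had LIF LP libraries wholly below 2i+LIF PO and 7.19% wholly below 2i+LIF LP. With edgeR's quasi-likelihood test at a Benjamini-Hochberg adjusted p under 0.05, 12% of genes were called between LIF LP and 2i+LIF PO, and 0.489% between LIF LP and 2i+LIF LP. Nothing is read from the 4 genes in these contrasts.

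Comparisons among the other groups ask how the genes stand in media and cultures that the choice did not use. All 4 passed the filter on low counts, and the tests below come from edgeR's quasi-likelihood fit over all 21 libraries, two-sided, adjusted over 10643 genes within each contrast. Nothing in the labels says that replicates were separate cultures, so these p-values may measure only technical spread. The contrasts share libraries and are not independent of one another.

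Srarp separated the CH+LIF HP and 2i+LIF HP libraries, being lower in the former, at 4.53 ± 0.72 against 29.8 ± 9.54 CPM (edgeR log2 fold change -2.68, SE 0.71, adjusted p 0.0488), with all 3 libraries below all 3. It was the member of the 4 called in this contrast, in which 2.02% of all genes were called. Slc24a5 (-2.73, SE 0.87, edgeR adjusted p 0.128) and Sp100 (-0.84, SE 0.74, edgeR adjusted p 0.766) were not called, though their libraries did not overlap either, as in 9.45% of all genes for this direction. Slc24a5 was called in 4 of 28 alternatives: without the filter (edgeR adjusted p 0.0331), both libraries that stood apart (0.0225), the groups that chose the genes (0.0338) or 2i+LIF LP replicate 1 (0.0321). Pglyrp1 differed by -0.25 with a 95% interval from -1.37 to 0.86, and its libraries overlapped. The Srarp call was kept in 15 of 29 alternatives, with edgeR or DESeq2 adjusted p from 0.00212 to 0.1997. It was lost without 2i+LIF HP replicate 2 or 3 or any CH+LIF HP replicate (edgeR adjusted p 0.129 to 0.1997), and without LIF HP replicates 1 to 3, LIF LP replicate 1 or 3, or replicate 2 of 2i+LIF PO, 2i+LIF LP or CH+LIF LP (0.0505 to 0.0658). The remaining loss was with the replicate number as a block (0.0549).

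Slc24a5 was higher in LIF HP than in CH+LIF HP, at 17.0 ± 2.86 against 1.23 ± 1.19 CPM, with no overlap (edgeR log2 fold change 3.61, SE 0.86, adjusted p 0.0321). It was the 1 member called here, against 1.47% of all genes. Srarp had 23.7 ± 6.69 against 4.53 ± 0.72 CPM, also without overlap (2.36, SE 0.71, edgeR adjusted p 0.105), as in 15.3% of all genes for this direction. Pglyrp1 had the opposite sign and no overlap (-1.68, SE 0.56, edgeR adjusted p 0.147; 14.6% of all genes). Sp100 overlapped, at 1.59 with a 95% interval from 0.03 to 3.14 (edgeR adjusted p 0.307). The Slc24a5 call was kept in 22 of 29 alternatives and lost without any 1 of the 6 libraries compared (edgeR adjusted p 0.0788 to 0.188) and with counts thinned to the smallest library (0.0633). Srarp was also called in 6 of 29 alternatives and Pglyrp1 in 3 of 29, among them the fit without both libraries that stood apart (edgeR adjusted p 0.0143 and 0.0461), in which Slc24a5 had 0.00237.

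**Figure D2:**
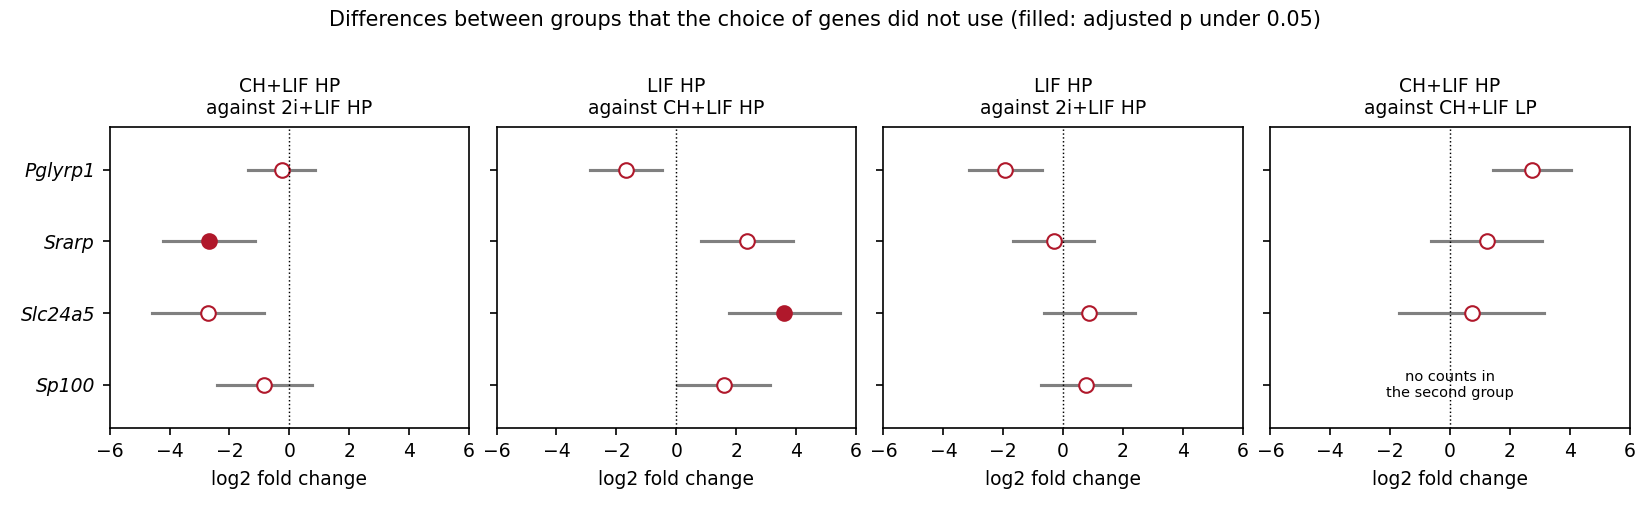
Log2 fold change (first group minus second) of the 4 genes in the contrasts that their choice did not use; points are edgeR estimates, lines 95% intervals, and filled points have an adjusted p under 0.05. The filled points are Srarp for CH+LIF HP against 2i+LIF HP (-2.68) and Slc24a5 in LIF HP against CH+LIF HP (3.61).

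Between LIF HP and 2i+LIF HP none of the 4 was called by edgeR, against 3.78% of all genes, while 1 had an unadjusted p under 0.05 and DESeq2 called the same 1. This was Pglyrp1, at 12.4 ± 8.68 CPM in LIF HP against 46.5 ± 13.4 CPM in 2i+LIF HP, with all 3 libraries below all 3 (edgeR log2 fold change -1.93, SE 0.57, adjusted p 0.055; 13.5% of all genes lay wholly lower). It was called in 12 of 29 alternatives (adjusted p over all of them 0.00538 to 0.156), among them the fits without 2i+LIF PO replicate 1, 2i+LIF LP replicate 1 or 3, or CH+LIF LP replicate 1 or 3, none of which is in the contrast. Slc24a5 lay wholly higher in LIF HP, as did 14.6% of all genes, by 0.88 with a 95% interval from -0.64 to 2.39. Srarp differed by -0.32 (95% interval -1.68 to 1.05) and Sp100 by 0.75 (-0.73 to 2.23), both with overlapping libraries. Without LIF HP replicate 2 the Sp100 difference was -0.0015. These intervals leave room for differences in either direction.

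Between CH+LIF HP and CH+LIF LP, 0.0094% of all genes, which is 1 gene, were called. None of the 4 was called by edgeR, 2 had an unadjusted p under 0.05, and DESeq2 called 1. Pglyrp1 had 38.7 ± 10.3 CPM in CH+LIF HP against 6.06 ± 4.84 CPM in CH+LIF LP, without overlap (edgeR log2 fold change 2.74, SE 0.60, adjusted p 0.212, DESeq2 adjusted p 0.00925). Sp100 had 22 reads against none, at least 7.23-fold higher (edgeR adjusted p 0.273), and every CH+LIF HP library held reads. Libraries of these genes did not overlap, as in 7.95% of all genes for this direction. Srarp (1.22, SE 0.86) and Slc24a5 (0.72, SE 1.13, on 7 against 4 reads) overlapped, and the sign for Slc24a5 turned to -0.18 without CH+LIF HP replicate 2.

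Other genes moved between the same groups, and their part in the results for Srarp and Slc24a5 was not tested. Of 12 ERK targets tested, 3 were higher and none lower in CH+LIF HP relative to 2i+LIF HP (2.02% of all genes called), and 4 were lower in LIF HP than in CH+LIF HP and none higher (1.47% of all genes). Their median log2 changes were 1.13 and -1.55, where the medians of all genes were -0.01 and 0.01. In each contrast the Dusp6 call was kept in all 6 fits that left out a library compared, and the Spry4 and Egr1 calls in 2. The Etv4 call, in the second contrast, was kept in all 6. Of 12 Wnt targets tested, 5 were lower in CH+LIF HP relative to 2i+LIF HP (median -3.31). These were Axin2, Sp5, Cdx2, Dkk1 and the Brachyury gene T, whose call was kept in 11 of 29 alternatives and in 0 of the 6 that left out a library compared. The Axin2 and Cdx2 calls were kept in 2 of those 6, and the Sp5 and Dkk1 calls in all 6. EdgeR called none between LIF HP and CH+LIF HP (median 0.48; 2 unadjusted p under 0.05, and 1 call by DESeq2). Sp5, a direct target of beta-catenin, lay at 135 to 494 CPM in 2i+LIF HP, 17.5 to 46.7 CPM in CH+LIF HP and 19.6 to 30.2 CPM in LIF HP. Of 16 embryonic stem cell markers, 3 were higher (Tdgf1 472 against 36.5 CPM, Utf1 82.0 against 3.01, Tbx3 323 against 117) and 1 lower (Dppa3, 1.93 against 84.4 CPM) in CH+LIF HP relative to 2i+LIF HP, and 1, Utf1, was lower in LIF HP (3.63 CPM) than in CH+LIF HP. Their sum lay at 3309 to 4378 CPM in 2i+LIF HP, 5386 to 6158 in CH+LIF HP and 4725 to 5207 in LIF HP. The Tbx3 call was kept in 2 of the 6 fits that left out a library compared, and the Tdgf1, Utf1 and Dppa3 calls in all 6. Of 7 primed epiblast markers tested, Otx2 and Foxd3 were higher in CH+LIF HP relative to 2i+LIF HP, and Otx2 was lower in LIF HP than in CH+LIF HP. Each of these calls was kept in 3 of the 6 fits that left out a library compared. Trophoblast markers, 8 of 9 with reads and Elf5 without any, summed to 111 to 144.5 CPM in 2i+LIF HP, 50.1 to 69.3 CPM in CH+LIF HP and 136 to 187 CPM in LIF HP. The LIF HP sum was mostly Tfap2c, a transcription factor gene read in every group (142.1 CPM, against 33.0 in CH+LIF HP), while the keratin genes Krt8 and Krt18 had 7.86 and 6.35 CPM in LIF HP and 9.16 and 8.98 CPM in CH+LIF HP. The median log2 change of the 4 tested was -0.16 between these groups. Two-cell-like markers, 9 of 11 with reads and Zscan4f and Gm4340 without any, summed to 18.2 to 24.2 CPM, 4.29 to 14.3 CPM and 0 to 4.31 CPM in the same groups.

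Several defining markers of the cells in which Pglyrp1 and Slc24a5 are best known had no reads, and others were read. Of 13 neutrophil and macrophage markers, Elane, S100a9, Lyz2 and Adgre1 had no reads in any library, and of the other 9 only Cd68, which is also a general lysosomal gene, passed the filter. The list summed to 8.97 to 52.1 CPM in 2i+LIF PO, 12.9 to 23.3 in 2i+LIF LP, 14.0 to 39.9 in CH+LIF LP and 20.4 to 29.3 in LIF LP. At HP it summed to 13.0 to 27.8 CPM in 2i+LIF, 14.5 to 24.3 in CH+LIF and 24.7 to 52.0 in LIF. Cd68 had means of 23.1 CPM in LIF LP and 40.5 CPM in LIF HP, where the mean sums were 24.5 and 41.2 CPM, and 7.81 CPM of a mean sum of 18.1 CPM in 2i+LIF HP. The more specific Itgam, Ly6g and Mpo were highest in 2i+LIF HP, as Pglyrp1 was, at 4.64, 2.39 and 2.00 CPM from 19, 8 and 8 reads. In LIF LP they had 4, 1 and 0 reads, and in LIF HP 1, 0 and 0. The parallel did not hold in all groups. Mpo had 0 reads in CH+LIF HP and in 2i+LIF LP, where Pglyrp1 had means of 38.7 and 16.5 CPM. The part of these markers in the Pglyrp1 values was not tested. Of 7 melanocyte markers, the pigment enzymes Tyr, Tyrp1 and Dct and the neural crest factor Sox10 had no reads in any library. Mitf, Pmel and Mlana, the members with reads, together gave 44.3 to 50.5 CPM in LIF HP and 52.5 to 64.2 CPM in CH+LIF HP, nearly all of it Mitf (41.6 and 51.1 CPM on average). Mlana, a melanosome protein gene, had 3.70 ± 1.48 CPM (16 reads) in LIF HP and 0.433 ± 0.749 CPM (2 reads) in CH+LIF HP, and 2.12 CPM (11 reads) in LIF LP, where Slc24a5 had none. Pmel, which forms the melanosome fibrils, had 2.09, 5.37 and 2.19 CPM in the same groups. The part of these markers in the Slc24a5 result was not tested.

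The 4 genes were placed among all that met the same condition. Of 31053 genes, 16278 had no reads in LIF LP, 2437 of these had reads in 2i+LIF PO or 2i+LIF LP, and 25 had a mean of at least 5 CPM in either of these groups. CPM is not corrected for gene length, so a rank by CPM is not a rank by transcript number. By the higher of these means Pglyrp1 had rank 1, Sp100 rank 2, Slc24a5 rank 4 and Srarp rank 10. Ffar2, a receptor for short-chain fatty acids, had rank 3 (18.7 CPM in PO) and Fam169b rank 5 (12.1 CPM). Just inside 5 CPM were Snai1 (5.05) and Ism2 (5.04), and just outside were Gm49101 (5.00 as rounded) and Gm10479 (4.96). A further 19 genes of at least 5 CPM had exactly 1 read in LIF LP, led by Spic (50.7 CPM in PO), Slc25a48 (14.8) and Lcp1 (14.4). A list that asks for no reads at all is thus set by single reads at this depth, and leaving out LIF LP replicate 1, 2 or 3 gave 52, 38 or 41 genes in place of 25.

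Of these 25 genes, 23 had a higher mean in PO than in 2i+LIF LP, and 6 reached 5 CPM in both. The groups that the condition did not use differed in how many of the 25 they held. Reads in all 3 libraries were found for 20 of 25 genes (80%) in 2i+LIF HP, 18 (72%) in LIF HP, 9 (36%) in CH+LIF HP and 3 (12%) in CH+LIF LP. Medians of the 25 group means were 4.19, 2.85, 1.26 and 0.253 CPM in that order, and 0, 2, 3 and 7 of the genes had no reads. These genes were chosen by level in other groups of the same table, so the counts are a description. Reads in all 9 HP libraries were found for 8 of them, among them Pglyrp1, Srarp and Sp100, with Lhfpl2, Plbd1, Tnni1, Adh1 and Cdx1. Slc24a5 missed this by CH+LIF HP replicate 3. Tnni1 (140 CPM in 2i+LIF HP, 34.3 in LIF HP, 10.7 in CH+LIF HP) and Cdx1 (39.4, 35.5 and 5.47 CPM), a caudal-type transcription factor and Wnt target, followed the order of Srarp at HP.

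**Figure D3:**
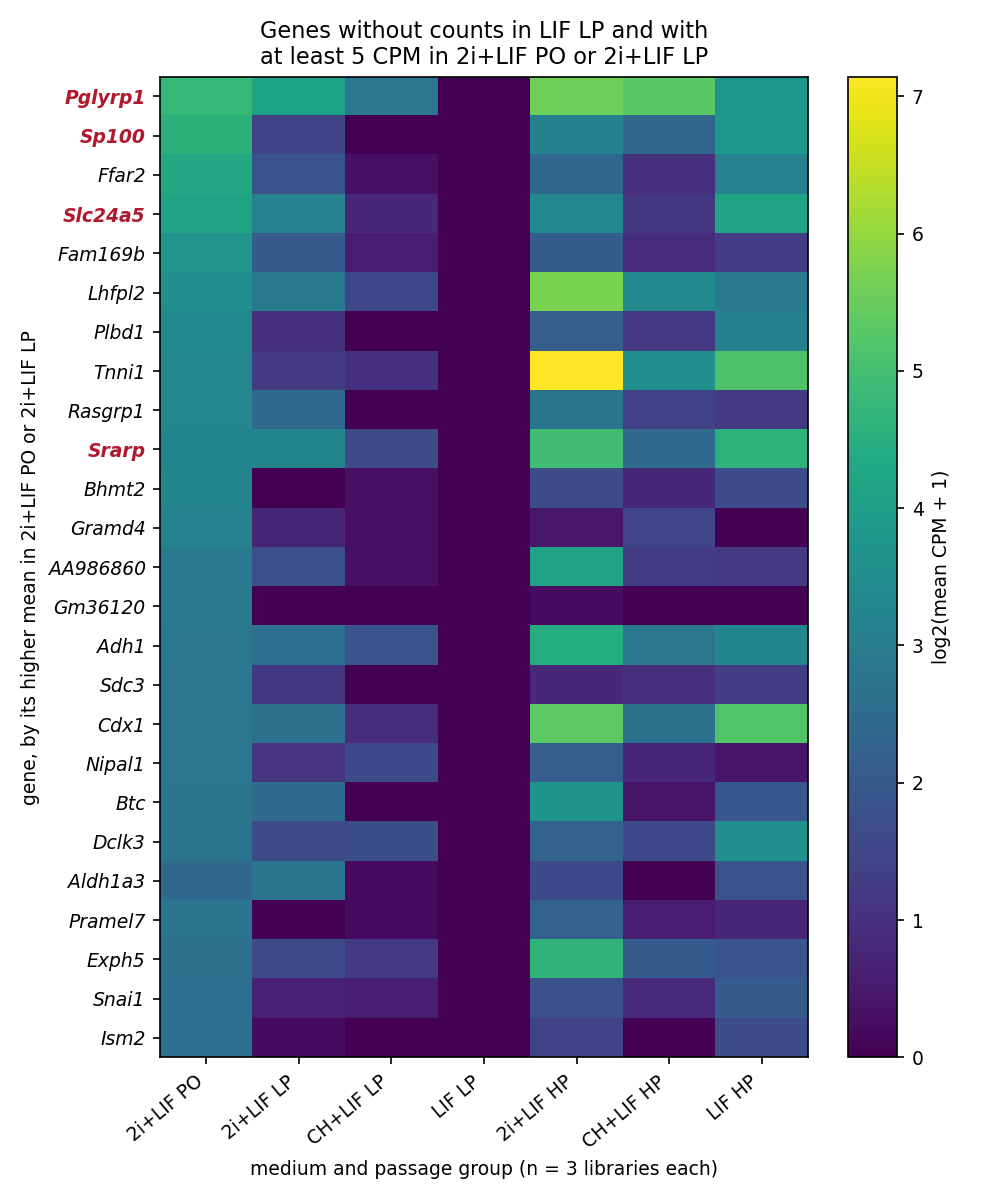
Mean level, as log2(mean CPM + 1), in each of the 7 groups (n = 3 libraries each) of the 25 genes without reads in LIF LP and with at least 5 CPM in 2i+LIF PO or 2i+LIF LP, ordered by the higher of those means; the 4 genes of the report are in bold red. The LIF LP column is 0 by the condition, CH+LIF LP has the lowest median (0.253 CPM) and 2i+LIF HP the highest (4.19 CPM) of the columns that the condition did not use.

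Across the 21 libraries, which share depth and medium groups, log2 CPM of the 4 genes correlated at Pearson's r of 0.80 for Slc24a5 with Sp100, 0.76 for Srarp with Slc24a5, 0.74 for Pglyrp1 with Srarp, 0.72 for Srarp with Sp100, 0.63 for Pglyrp1 with Sp100 and 0.51 for Pglyrp1 with Slc24a5. The shared absence in LIF LP enters every one of these values, which are a description. Among 10512 tested genes with a mean of at least 5 CPM in some group, those most like each of the 4 differed. For Pglyrp1 they were Gm26760 (r 0.88), Epp13 (0.85), Lhfpl2 (0.83), Trpm1 (0.83) and Grhl2 (0.83). For Srarp they were Gm31659 (0.91), Epp13 (0.91), Letmd1 (0.90), Crxos (0.89) and Cog4 (0.89). For Slc24a5 they were Spic (0.92), Ly6a (0.90), Ffar2 (0.89), Myh7b (0.89) and Aqp3 (0.88), and for Sp100 Lcp1 (0.89), Lrpap1 (0.87), Ly6a (0.87), Ak4 (0.87) and Smtnl2 (0.86). Epp13 stood in the lists of both Pglyrp1 and Srarp, and Ly6a in those of both Slc24a5 and Sp100. Ly6a, which encodes the surface protein Sca-1, had 328 CPM in PO, 125 for 2i+LIF LP, 14.4 in CH+LIF LP, 8.79 in LIF LP, 115 in 2i+LIF HP, 34.8 in CH+LIF HP and 101 in LIF HP. Epp13 had 16.6, 15.9, 3.11, 1.55, 52.7, 13.4 and 17.7 CPM in the same groups.

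Genes beside the 4 on the chromosome were examined next. Hspb7, a small heat shock protein gene that lies 7360 bases from Srarp on the opposite strand, had 20.6 ± 4.96 CPM in LIF HP, 15.9 ± 11.5 in 2i+LIF HP and 1.08 to 6.31 CPM on average elsewhere (r with Srarp 0.63). Its libraries split in 2i+LIF HP, where replicate 2 held 5 reads and replicates 1 and 3 held 45 and 25. None of its contrasts was called by edgeR, the nearest being LIF HP against CH+LIF HP (edgeR log2 fold change 2.58, SE 0.76, adjusted p 0.0969). In that contrast Hspb7 was called in 6 of 29 alternatives, and in 0 of the 6 that left out a library compared. Zbtb17, 8548 bases to the other side of Srarp, had means of 14.2 to 24.8 CPM in all 7 groups.

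Myef2, which overlaps Slc24a5 on the opposite strand, had 238 reads in LIF LP (43.3 CPM), where Slc24a5 had none. It ranged on average from 23.0 CPM in 2i+LIF HP to 55.6 CPM in PO, with an r of -0.27 to Slc24a5 and no call in any contrast. Of the 50-base words in Slc24a5 transcripts, 37.8% also occur in transcripts of Myef2 or Gm37308, so reads from that stretch could be assigned to either gene or dropped, and the strand setting of the counting is not given in the sources used here. The share of words also found in transcripts of other genes was 5.92% for Sp100, 2.67% for Pglyrp1 and 0% for Srarp. Sp140, a relative of Sp100 that starts upstream of it and ends 4950 bases away, had means of 9.31 ± 12.1 CPM for 2i+LIF LP and 9.24 CPM for 2i+LIF HP. In LIF LP it held 7 reads (1.39 CPM), and 33 of its 42 reads in 2i+LIF LP came from replicate 1. Ccdc61, 423 bases beyond Pglyrp1, had means of 5.14 to 12.3 CPM and was not called between any of the groups compared.

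**Figure D4:**
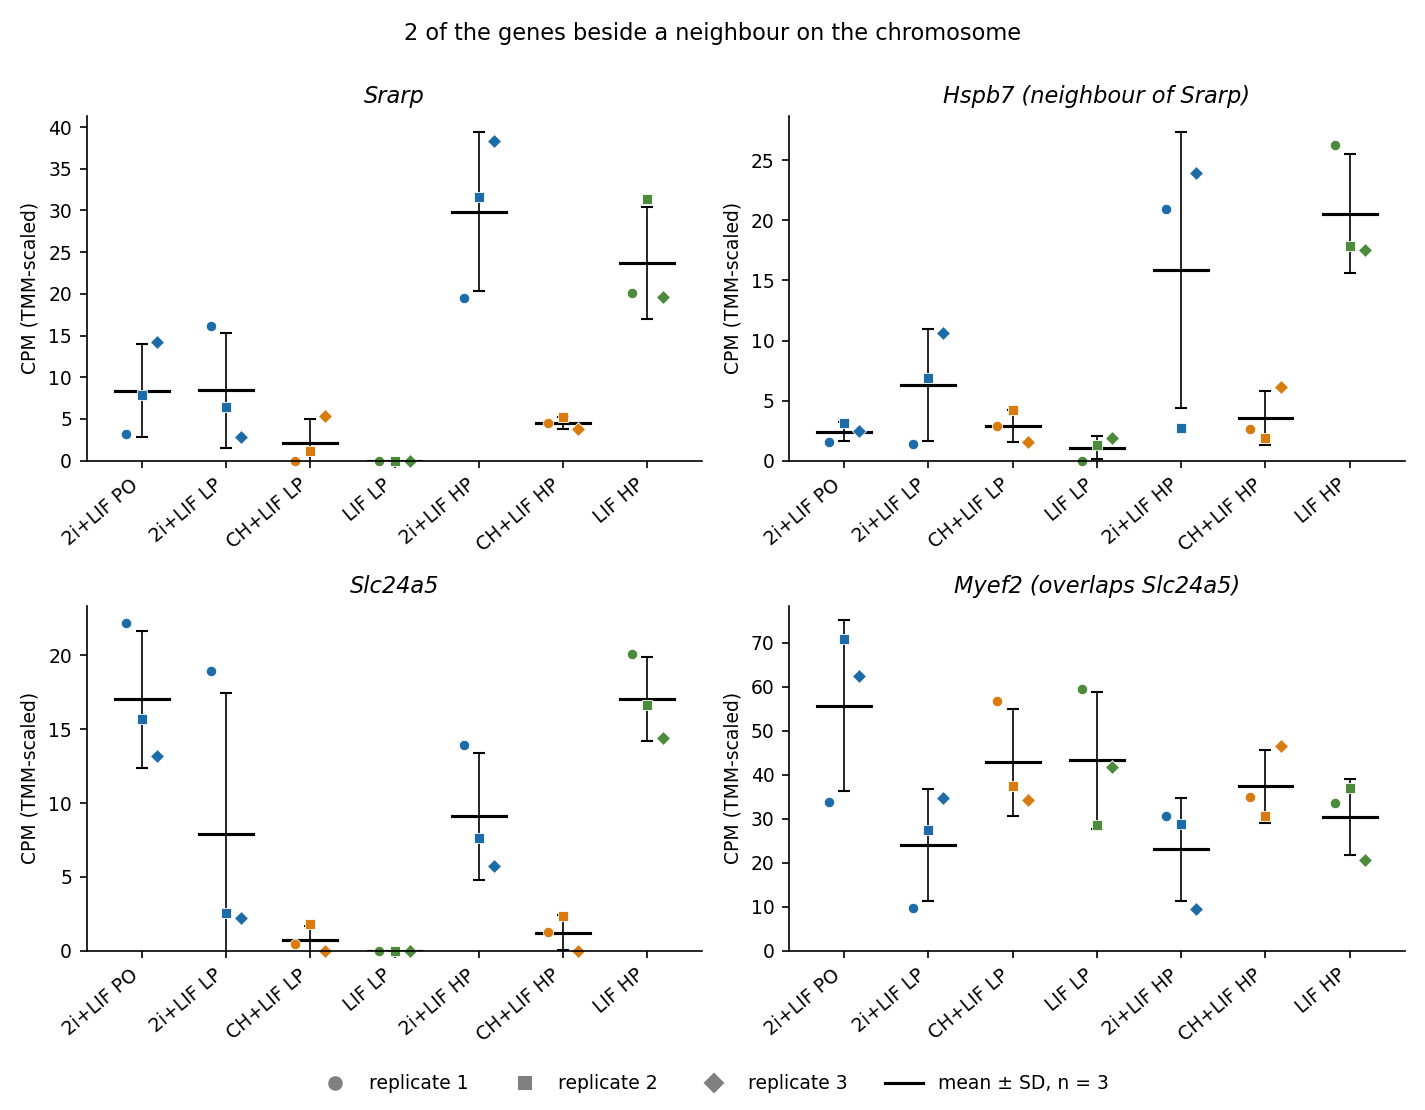
Level in CPM (TMM-scaled, linear axes from 0 that differ between panels) of Srarp and its neighbour Hspb7 and of Slc24a5 and the overlapping gene Myef2, in each library by group; points are replicates and bars the mean ± SD of 3. Hspb7 is high in LIF HP and in 2 of 3 libraries of 2i+LIF HP, and Myef2 is present in LIF LP (43.3 CPM on average) where Slc24a5 has no reads.

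Genes related to each of the 4 by family or pathway were then counted in the 4 contrasts above and in LIF LP against both 2i+LIF groups. Most genes related to Pglyrp1 were absent or too low to test. Of 25 other genes of peptidoglycan recognition and antibacterial defence, 11 had no reads in any library, including Pglyrp2, Pglyrp3 and Pglyrp4 and the granule genes Ltf, Lcn2 and Ngp. The filter left 4 of them, and edgeR and DESeq2 called none in any of the 6 contrasts, with 2 of the 24 unadjusted p under 0.05. Among these, the adaptor Myd88 had means of 5.15 to 16.1 CPM and the receptor Tnfrsf1a 2.35 to 9.16 CPM, and both were read in LIF LP.

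Of 24 PML nuclear body and SP100 family genes measured, 22 passed the filter. Of these, none was called in 5 of the 6 contrasts by edgeR or DESeq2, with 0 to 4 unadjusted p under 0.05 in each. Between LIF LP and 2i+LIF PO, where 12% of all genes were called, 2 were lower and none higher: the SUMO ligase Pias4 (20.1 ± 9.4 against 58.8 ± 30.0 CPM) and Ubn1, a subunit of the HIRA histone chaperone (99.4 ± 6.68 against 189 ± 36.1 CPM). DESeq2 called 4 of the list there. The Ubn1 call (edgeR adjusted p 0.0484) was kept in 7 of 28 alternatives and in 0 of the 6 that left out a library compared, and the Pias4 call in 23 of 28, not without 2i+LIF PO replicate 1 (log2 fold change -1.03). Pml itself, the scaffold of these bodies, had 61.5 CPM in LIF LP and 93.4 CPM in PO, and Daxx, a histone chaperone that acts with ATRX, 162 and 107 CPM. The median log2 change of the list in that contrast was -0.05, beside -0.08 for all genes. Sp110, of the same family as Sp100, had 17 reads in all, none of them in LIF LP, CH+LIF LP, CH+LIF HP or LIF HP.

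Of 21 interferon-stimulated genes tested, 3 were called between LIF LP and 2i+LIF PO, where 12% of all genes were. In LIF LP, Ifitm3 (657 ± 137 against 242 ± 132 CPM) and the viral tether gene Bst2 (29.5 ± 5.99 against 6.09 ± 1.62 CPM) were higher than in PO, and Oas1a, a sensor enzyme of double-stranded RNA, was lower (0.589 ± 0.555 against 7.59 ± 3.41 CPM). The Ifitm3 call was kept in 13 of 28 alternatives and in 1 of the 6 that left out a library compared. Bst2 and Ddx58 (RIG-I, also an RNA sensor) were higher in CH+LIF HP relative to 2i+LIF HP and none was lower (2.02% of all genes called), while Sp100 had a difference of -0.84 there that was not called. In LIF HP, Ifitm1 was higher and Ddx58 lower than in CH+LIF HP (1.47% of all genes), and Ifitm3, Bst2 and B2m were higher than in 2i+LIF HP (3.78% of all genes). The Ifitm1 call was kept in 16 of 29 alternatives and in 0 of the 6 that left out a library compared, the B2m call in 23 and 0, and the Ddx58 call against 2i+LIF HP in 24 and 1. No gene of the list was called in LIF LP against 2i+LIF LP or CH+LIF HP against CH+LIF LP by edgeR, with 2 unadjusted p under 0.05 in each and 1 and 0 calls by DESeq2. Ifit1, Ifit3 and Usp18 had no reads in any library. Medians of the list lay between -0.30 and 0.39 over the 6 contrasts.

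Of the other sodium-calcium exchangers, Slc24a2, Slc24a4 and Slc8a1 had no reads and only the mitochondrial exchanger Slc8b1 passed the filter, with means of 4.26 to 17.1 CPM and no call by edgeR or DESeq2 (1 unadjusted p under 0.05 in 6 contrasts). Of 13 melanosome genes tested, 2 were lower in LIF LP than in PO, where 12% of all genes were called: Mitf, the master regulator of pigment cells (42.1 ± 3.71 against 93.7 ± 4.92 CPM), and the melanocortin receptor gene Mc1r (1.07 ± 0.39 against 7.97 ± 9.19 CPM). The Mc1r call was lost in 6 of 27 alternatives, and without 2i+LIF PO replicate 2 its log2 fold change went from -2.83 to -1.27 (edgeR adjusted p 0.423). The Mitf call was kept in 22 of 28, and in 1 of the 6 that left out a library compared. EdgeR called none in the other 5 contrasts, where DESeq2 called 0 to 1 each and 0 to 3 had an unadjusted p under 0.05. Of 16 nuclear receptors, the proteins that Srarp is named for, 2 were higher (Nr3c1 and Rarg) and 3 lower (Esrrb, Nr5a2 and Nr2f2) in LIF LP than in PO, where 12% of all genes were called. Esrrb, a naive pluripotency factor, had 161 ± 5.63 against 326 ± 63.5 CPM, a call kept in 10 of 28 alternatives. Without 2i+LIF PO replicate 1, the library rich in mitochondrial reads, the Nr2f2 difference went from -2.34 to -0.64 (edgeR adjusted p 0.543). EdgeR and DESeq2 called none in the other 5 contrasts, with 1 to 3 unadjusted p under 0.05 in each. The estrogen receptor gene Esr1 had 1 read in all libraries together and Esr2 had none.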

How the data were processed

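Messenger RNA of 21 E14Tg2a libraries was measured. The authors deposited whole-number read counts per gene for each library; the submitters' processing notes list bcl2fastq, STAR 2.6.0a, HTSeq and mm10, without role or order. Annotation, strand setting and filters are not given in the sources used here. The 5 closing entries of each table, which name no gene, entered neither library sizes nor tests: of all reads listed, 8.46% to 25.8% per library were reads without a gene, 0.179% to 0.683% ambiguous and 20.8% to 35.4% not unique. Symbols and positions came from GENCODE M21 (30934 of 31053 gene IDs matched), promoters from RefSeq (4 of 4 matched).

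The 4 genes and all gene lists were chosen with earlier results of these data known. Counts were tested with edgeR 4.0.16 in R 4.3.3: TMM, filterByExpr (10643 genes), 1 quasi-likelihood fit with 7 group coefficients and 14 residual degrees of freedom, threshold 0.05. SE is the log2 fold change over the square root of F; intervals are 95%. Correlations used log2 CPM with prior count 2. Bounds used pooled counts against 3 counts. Named genes were the 4, the listed genes, chromosome neighbours, the 5 most correlated genes each, and the 5 highest of the same pattern; others were named after their values were seen.

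Alternatives were DESeq2 1.42.0, its size factors, no filter, thinned counts, a replicate block, fewer groups and each library left out. Steps were tested on simulated counts.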

Additional observations from a re-analysis of the deposited data

How the results depend on the processing

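With library totals or DESeq2 size factors in place of TMM, no mean level of the 4 genes moved by over 1.5 times. Leaving out replicate 1 of 2i+LIF LP moved the mean there from 7.92 to 2.41 CPM for Slc24a5, 8.46 to 4.63 for Srarp and 1.79 to 0.925 for Sp100. In CH+LIF LP, means moved from 6.06 to 3.39 CPM for Pglyrp1 and 2.18 to 0.605 for Srarp without replicate 3, from 2.18 to 3.26 for Srarp without replicate 1, and from 0.767 to 0.242 for Slc24a5 without replicate 2. Others that moved by over 1.5 times were Srarp in 2i+LIF PO without replicate 3 (8.41 to 5.51 CPM), Slc24a5 in CH+LIF HP without replicate 2 (1.23 to 0.649) and Sp100 in LIF HP without replicate 2 (13.0 to 7.47). In the order of CH+LIF HP against 2i+LIF HP, LIF HP against CH+LIF HP, LIF HP against 2i+LIF HP and CH+LIF HP against CH+LIF LP, genes called (2.02%, 1.47%, 3.78% and 0.0094% of those tested) numbered 354, 326, 689 and 21 without the filter, 543, 758, 1427 and 9 without both libraries that stood apart, 444, 483, 1066 and 4 without the groups that chose the genes, 336, 1176, 641 and 15 with only the groups compared, and 340, 357, 743 and 14 with DESeq2. With single libraries left out they ran from 99 to 361, 29 to 316, 123 to 786 and 0 to 3, and the last was 2 with thinned counts. LIF LP against 2i+LIF LP had 52, which became 276 without the filter, 3 with only the groups compared, 183 with DESeq2 and 13 to 130 with single libraries left out. LIF LP against 2i+LIF PO had 1272, which became 2279 without both libraries that stood apart, 826 with only the groups compared and 571 to 1853 with single libraries left out. The cause was not tested.

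Of the 4 genes, 1, 1, 0 and 0 were called in the first 4 contrasts. These became 2, 3, 1 and 2 without the filter, 2, 3, 1 and 1 without both libraries that stood apart, 2, 2 and 1 in the first 3 without the groups that chose the genes, and 3, 1 and 1 in the last 3 with only the groups compared. DESeq2 gave 2, 1 and 1 in the last 3, and thinned counts 0 in LIF HP against CH+LIF HP and 1 in LIF HP against 2i+LIF HP. Single libraries left out gave 0 to 2, 0 to 2, 0 to 1 and 0. Replicate numbers are not said to mark a shared culture, and deviations of same-numbered libraries correlated at -0.154 to 0.327, with all 3 pairs above 0.1 in none of the 6 contrasts. With the replicate number as a block, the counts of the 4 called were 0 for CH+LIF HP against 2i+LIF HP (Srarp, adjusted p 0.0549) and 1 in LIF HP against 2i+LIF HP (Pglyrp1, adjusted p 0.0353), and 3 genes in all were called in CH+LIF HP against CH+LIF LP. The 25 genes of the same pattern became 134 at 2 CPM, 6 at 10 CPM and 38 to 52 with 1 LIF LP library left out. The signs of Sp100 in LIF HP against 2i+LIF HP (-0.0015, without LIF HP replicate 2, to 1.2527 with single libraries left out) and of Slc24a5 in CH+LIF HP against CH+LIF LP (-0.1796, without CH+LIF HP replicate 2, to 2.0116) turned. With 3 libraries a group and 0 to 135 reads per library in these genes, smaller differences could be missed.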
